A study of Camelina sativa with 12 samples.

Results

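Jasmonate synthesis in camelina (Camelina sativa) was followed through 6 genes across 12 RNA-Seq libraries: the lipoxygenase 4 (LOX4) genes Csa09g076110, Csa16g035210 and Csa07g039620, the lipoxygenase 3 (LOX3) gene Csa03g021200, and the allene oxide cyclase 2 (AOC2) genes Csa09g008870 and Csa06g005340. They are 6 of the 49932 genes listed, chosen by gene ID from those that the study names under jasmonic acid, and all 6 were found. By their IDs, the LOX4 genes lie on chromosomes 9, 16 and 7, the LOX3 gene on chromosome 3 and the AOC2 genes on chromosomes 9 and 6. The study singled them out for salt responses in the same libraries, so their salt effects are not independent evidence of a direction.

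All plants were of camelina line DH55, a doubled haploid, and were harvested at 28 days. Salt-treated plants had received NaCl at 192 mM (15 dSm-1) for 21 days by the labels, and control plants had received tap water. The study's methods for RNA give the same duration, whereas its methods for plant growth give a later start of the saline solution. The duration of salt is therefore uncertain. Roots and shoots of both treatments make 4 groups of 3 biological replicates each. The sources used here do not say whether a replicate was a single plant or a pool, and every result refers to a single line. In such bulk samples, fewer cells of a type and less RNA per cell cannot be told apart.

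Jasmonate is an oxylipin hormone made from α-linolenic acid of plastid membranes. Lipoxygenases add oxygen to the fatty acid, allene oxide synthase turns the hydroperoxide into an unstable allene oxide, and allene oxide cyclase closes the ring to give OPDA. OPDA is then reduced and shortened by β-oxidation in the peroxisome. In Arabidopsis, LOX3 and LOX4 are plastid lipoxygenases of this route, and AOC2 is an isoform of the cyclase that is found in leaves. Camelina is a hexaploid in which most Arabidopsis genes have a copy on each of the 3 sub-genomes, called homeologues. Reads that fit more than 1 copy may have been split between copies, and the values of single homeologues are uncertain to that extent.

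Levels are given as CPM (counts scaled to library size) as deposited, rounded to whole numbers, so a value of 1 covers anything near 1 and a value of 0 does not show that reads were absent. How many reads each library held is unknown. Library sums lay between 882288 and 938888 CPM in roots and between 1077479 and 1117956 CPM in shoots. The main fit did not adjust for this difference between the organs. A gene was called at an adjusted p (limma, Benjamini-Hochberg) of 0.05 or less, taken over the 49928 genes tested, together with an absolute change above 1 on the log2(CPM + 0.5) scale. That scale understates changes of genes near 0. Groups with equal values add no spread to the estimate shared by the 4 groups, so p may be too small for such genes. As a check of organ identity, the summed level of 10 photosynthesis genes (several of them picked by the study for a salt effect) was 18500 to 20321 CPM in control shoots and 9739 to 12254 CPM in salt-treated shoots, against 12 to 29 CPM in control roots and 75 to 201 CPM in salt-treated roots. Among libraries, salt shoot replicate 2 gave the lowest salt-treated value for 64.5% of the genes up-regulated in shoots.

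**Figure D1:**
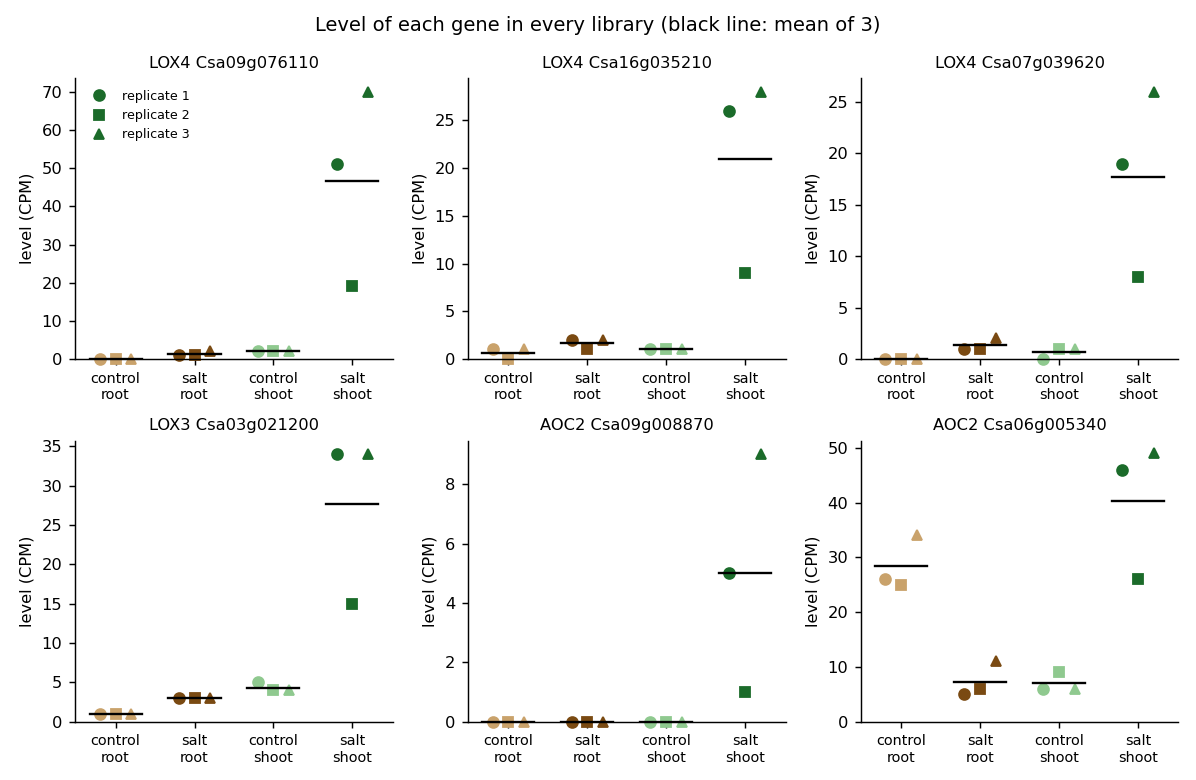
CPM of each of the 6 genes (vertical axis, a separate scale for each gene) in each library of the 4 groups; symbols are replicates 1 to 3 and the black line is their mean. Salt-treated shoots hold the highest mean for every gene, with replicate 2 the lowest of the 3 salt-treated shoots, and Csa06g005340 alone stands at 25 CPM or more in control roots.

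Of these genes, 5 were up-regulated in salt-treated shoots with every salt-treated library above every control library, and so was Csa09g008870, for which a high level in that group was a condition of its being tested. Among all genes tested, 10.8% were called up-regulated in shoots and 25.2% had salt libraries above control libraries without overlap. The median change of the 5 genes in shoots was 3.68 on the log2 scale, against 0 over all genes tested. The study named the genes for salt responses in these libraries, so that choice favoured such a contrast. Among the 5 are the LOX4 copies, which may share reads and are not separate evidence. The LOX4 gene Csa09g076110 stood at 2, 2 and 2 CPM in control shoots and at 51, 19 and 70 CPM in salt-treated shoots. The groups were far apart, although the lowest and highest salt-treated libraries themselves differed 3.68-fold. The ratio of its means was 23.3, with bounds of 18.5 and 31.4 from rounding alone, and the log2 change was 4.05 (SE 0.38, adjusted p = 7.78e-06).

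The other LOX4 genes moved alike. Csa16g035210 was at 1, 1 and 1 CPM in control shoots and 26, 9 and 28 CPM in salt-treated shoots. Its log2 change was 3.68 (SE 0.48, adjusted p = 7.37e-05). Csa07g039620 was at 0, 1 and 1 CPM in control shoots and 19, 8 and 26 CPM with salt, a log2 change of 3.98 (SE 0.47, adjusted p = 3.965e-05). Both genes therefore started at the lowest step of the scale, and rounding alone leaves wide bounds on their ratios of means, at 13.7 to 43.0 for Csa16g035210 and 14.7 to 109.0 for Csa07g039620. Ranked by the size of the rise in shoots, the LOX4 genes Csa09g076110, Csa07g039620 and Csa16g035210 took places 272, 294 and 400 among the 49928 genes. The study's choice of genes favoured high places. The changes behind them also vary with the fit, that of Csa07g039620 from 3.42 to 5.01.

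LOX3 and the AOC2 gene Csa06g005340 had measurable levels without salt. The LOX3 gene Csa03g021200 was at 5, 4 and 4 CPM in control shoots and at 34, 15 and 34 CPM in salt-treated shoots. The ratio of means was 6.38, with rounding bounds of 5.62 and 7.35 (log2 change 2.46, SE 0.26, adjusted p = 1.54e-05). Csa06g005340 was at 6, 9 and 6 CPM in control shoots and at 46, 26 and 49 CPM in salt-treated shoots. Its ratio of means was 5.76, with rounding bounds of 5.31 and 6.28 (log2 change 2.42, SE 0.30, adjusted p = 5.18e-05). For both genes the salt-treated shoots were clearly separated from the controls, and replicate 2 lay nearest to them.

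The second AOC2 gene, Csa09g008870, is listed at 0 in all 9 libraries other than salt-treated shoots, where it was at 5, 1 and 9 CPM. It passed the filter on low values (1 CPM or more in at least 3 libraries) only through that group, whereas the other 5 genes also reached 1 CPM in at least 3 libraries elsewhere. No fold is given against groups listed at 0. Its adjusted p was 0.000338, and the fitted log2 change of 3.10 depends on the number added before the logarithm (5.21 with 0.1 and 2.30 with 1). Groups listed at 0 add no spread to the shared estimate, so this p may be too small. In salt-treated shoots it made up 9.80%, 3.70% and 15.5% of the summed CPM of the AOC2 genes in replicates 1, 2 and 3. The lowest share came from the library in which the partner gene was lowest as well.

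**Figure D2:**
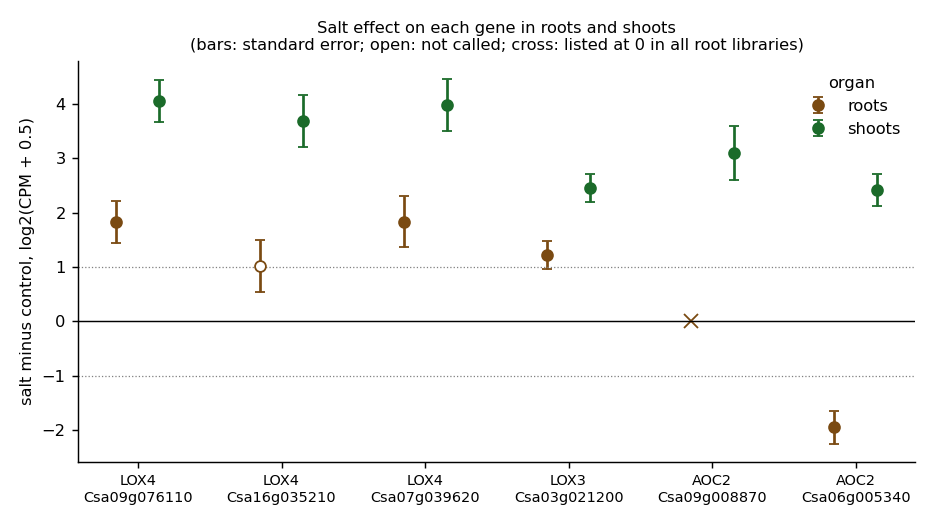
Change with salt (vertical axis, difference of mean log2(CPM + 0.5)) of each gene in roots and shoots; bars are standard errors, filled points passed the thresholds, and the cross is a gene listed at 0 in every root library. The 6 shoot changes lie between 2.42 and 4.05, while the root changes run from -1.94 to 1.83.

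In roots the same genes divided. Of the 6, 3 were up-regulated, 1 was down-regulated and 2 were not called, where 8.22% of all genes tested were called up-regulated and 7.85% down-regulated. The LOX4 gene Csa09g076110 is listed at 0 in each control root and, with salt, at 1, 1 and 2 CPM, and Csa07g039620 has the same 6 values. Both passed the test with a fitted log2 change of 1.83 (adjusted p = 0.00234 and 0.00816), which rested on a rise of 1 to 2 CPM and was 3.77 with 0.1 added and 1.19 with 1 added. Csa16g035210 was at 1, 0 and 1 CPM in control roots and 2, 1 and 2 CPM with salt. Its groups overlap, and it did not pass (log2 change 1.02, SE 0.48, adjusted p = 0.103).

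LOX3 showed the clearest separation of the lipoxygenase genes in roots, at 1 CPM in each control library and 3 CPM in each salt-treated library. The log2 change was 1.22 (SE 0.26, adjusted p = 0.00238). Equal values within a group hide any spread between replicates, so this p may be too small, and rounding allows a ratio of 1.67 to 7.0. Even with salt, root levels of the called lipoxygenase genes were 2.86% (Csa09g076110), 7.55% (Csa07g039620) and 10.8% (Csa03g021200) of their levels in salt-treated shoots. Rubisco small chain genes, markers of green tissue, also rose in salt-treated roots, to 0.616%, 1.83% and 2.23% of their salt-treated shoot levels, and the chlorophyll-binding protein gene Csa06g008820 to 4.58%. The other 6 of the 10 photosynthesis genes are listed at 0 in every root library. Their means in salt-treated shoots were only 3.67 to 55.7 CPM, against 583 to 6598 CPM for the Rubisco genes, so shares as small as those of Rubisco may round to 0. The part of shoot RNA in the root values was not tested.

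The AOC2 gene Csa06g005340 went the other way in roots. Control roots held 26, 25 and 34 CPM of it and roots with salt 5, 6 and 11 CPM, with no overlap between the groups. In 23.5% of all genes tested, salt-treated roots lay below control roots without overlap. The ratio of means was 0.259, with rounding bounds of 0.237 and 0.281 (log2 change -1.94, SE 0.30, adjusted p = 0.000318). A fall in roots together with a rise in shoots was called for 78 of the genes tested (0.156%), this gene among them. The study names Csa06g005340 for these opposite changes in the same libraries, so its place in this class was largely fixed by that choice. The other AOC2 gene, Csa09g008870, is listed at 0 in all 6 root libraries, so that no root change could be seen for it.

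The comparison of organs without salt was not one on which the genes were chosen, although it shares the control libraries, and its direction depended on the gene. Csa06g005340 was higher in control roots (25 to 34 CPM) than in control shoots (6 to 9 CPM), with a log2 difference of shoots minus roots of -1.95 (SE 0.30, adjusted p = 0.000131). Csa09g076110 and Csa03g021200 were higher in control shoots, by 2.32 (SE 0.38, adjusted p = 0.000233) and 1.68 (SE 0.26, adjusted p = 0.000126). Csa09g076110 is listed at 0 in each control root and at 2 CPM in each control shoot. Its difference depends on the number added before the logarithm and was 1.58 to 4.39 in the alternative fits. Csa03g021200 was at 1 CPM in each control root and 4 to 5 CPM in control shoots. Groups with equal values add no spread, so both p may be too small. Of all genes tested, 17% were called higher in control shoots and 15.3% higher in control roots. Csa16g035210 and Csa07g039620 did not pass (adjusted p = 0.36 and 0.0717), with no library of either organ above 1 CPM. Csa07g039620 did pass with 0.1 added before the logarithm (0.0291), without control shoot replicate 1 (adjusted p = 0.00786) or without salt shoot replicate 2 (0.0411).

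Under salt, the 5 genes other than Csa09g008870 were higher in shoots than in roots, as were 18.2% of all genes tested. The study named these genes for salt responses in the same libraries, so a high level in salt-treated shoots was favoured by that choice. The LOX4 copies may share reads and are not separate evidence. The differences were 4.54, 3.19 and 3.20 on the log2 scale for the LOX4 genes Csa09g076110, Csa16g035210 and Csa07g039620, 2.92 for LOX3 and 2.40 for the AOC2 gene Csa06g005340 (adjusted p between 8.08e-07 and 0.000112). Csa09g008870 was called as well, but it was tested only because it reached 1 CPM in the salt-treated shoots. For Csa06g005340 the order of the organs was therefore turned around, with salt-treated shoots and control roots at the top. Its ranges in these top groups (26 to 49 CPM and 25 to 34 CPM) overlap, as do those of control shoots (6 to 9 CPM) and salt-treated roots (5 to 11 CPM). For the LOX4 gene Csa16g035210, control roots, control shoots and salt-treated roots overlap, and salt-treated shoots stand apart. For LOX3 no groups overlapped, and the order was control roots (1 CPM), then roots with salt (3 CPM), control shoots (4 to 5 CPM) and shoots with salt (15 to 34 CPM).

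The difference between the salt effects of shoots and roots was tested as an interaction. It was called in the direction of a higher change in shoots for the 5 genes measured outside salt-treated shoots, where 6.25% of all genes tested were called in that direction and 6.09% in the other. Among these 5, the difference of Csa06g005340 was the largest, at 4.36 on the log2 scale (SE 0.42, adjusted p = 6.58e-05). It was called with each library left out in turn, with values from 4.14 to 4.67. The study names Csa06g005340 for opposite changes in roots and shoots of these libraries, so a difference was largely fixed by that choice. For the lipoxygenase genes the difference was less certain, with control roots at 0 or 1 CPM. It was 2.22, 2.66 and 2.15 for the LOX4 genes Csa09g076110, Csa16g035210 and Csa07g039620 (adjusted p = 0.0127, 0.0155 and 0.0383) and 1.23 for LOX3 (adjusted p = 0.0295), and none of these 4 passed with 0.1 in place of 0.5 added before the logarithm (adjusted p = 0.58, 0.176, 0.481 and 0.0682). The call for Csa07g039620 was lost in 8 of 12 fits that left out a library (any control root replicate, control shoot replicate 1, salt root replicates 1 or 2, salt shoot replicates 1 or 3), with an adjusted p of up to 0.0917. That for LOX3 was lost in 10 of 12, all except those without control shoot replicate 1 or salt shoot replicate 2, with an adjusted p of up to 0.0735. For Csa09g008870, listed at 0 in all roots, the interaction (3.10, adjusted p = 0.00924) only restates its rise in shoots.

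**Figure D3:**
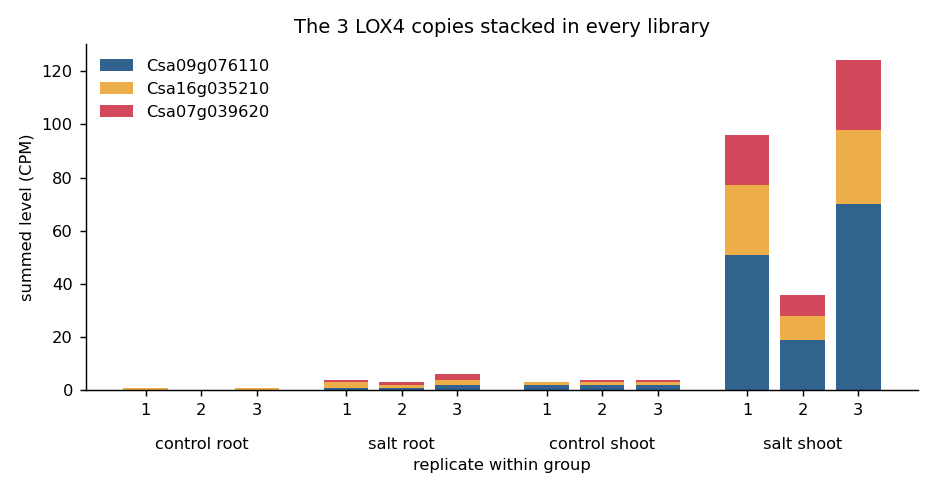
CPM of the LOX4 genes stacked for each of the 12 libraries, by group and replicate; each colour is a gene copy. The sum is 0 to 6 CPM outside salt-treated shoots and 36 to 124 CPM within them, with the copies in similar proportions in the 3 salt-treated shoots.

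The LOX4 copies kept similar proportions as their sum varied between salt-treated shoots. The sum was 96, 36 and 124 CPM in replicates 1 to 3, and Csa09g076110 contributed 53.1%, 52.8% and 56.5% of it. Csa16g035210 contributed 27.1%, 25.0% and 22.6%, and Csa07g039620 contributed 19.8%, 22.2% and 21.0%. CPM is not corrected for gene length and gene lengths are not used here, so these are shares of CPM and not of molecules. Reads that fit more than 1 copy may have been split between copies, and their part in the steady shares was not tested. In control shoots the sum was 3 or 4 CPM, too low for shares to be read, and in control roots it was 0 or 1 CPM.

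Within salt-treated shoots the replicates were not alike. Relative to replicate 2, replicate 3 was higher by 3.68, 3.11 and 3.25 times for Csa09g076110, Csa16g035210 and Csa07g039620, by 2.27 times for LOX3, by 9.0 times for Csa09g008870 and by 1.88 times for Csa06g005340. The factor for Csa09g008870 rests on a value of 1 CPM. Replicate 2 was the lowest for 6 of the 6 genes, which is read against the 64.5% of up-regulated genes given above. Without salt shoot replicate 2 the shoot rises of 5 of the genes were called as before, and Csa09g008870 was not tested because it then failed the filter.

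Across the 12 libraries, which share their group structure, Pearson's r of log2(CPM + 0.5) between the lipoxygenase genes was 0.927 to 0.994, the highest being that of Csa09g076110 with LOX3. Csa06g005340 followed the lipoxygenase genes less closely, with r of 0.354 to 0.539, and its control roots stood high where theirs were at 0 or 1 CPM. These values are descriptions and carry no test. Among 35991 other genes with a mean of 5 CPM or more, the profile most like that of LOX3 was Csa17g055430 (r = 0.995), which was at 1 CPM in each control root and at 44, 23 and 43 CPM in salt-treated shoots. The profile closest to Csa06g005340 was Csa12g084140 (r = 0.968), at 98 to 108 CPM in control roots and 60 to 63 CPM in roots with salt, against 64 to 66 CPM in control shoots and 105 to 118 CPM in shoots with salt. The sources used here pair neither ID with a name. Second nearest to Csa09g008870 was Csa09g009660, annotated by the study as a cytochrome P450 of the CYP71B type. It is listed at 0 outside salt-treated shoots and was at 39, 3 and 39 CPM within them (r = 0.994).

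The pathway beyond these steps was examined through 8 further genes of jasmonate metabolism and 7 defence genes that respond to jasmonate in Arabidopsis, all taken from the study's sheets of genes changed in shoots. Their direction in shoots was thus fixed by that choice, whereas their root values were not used in it. Of the 8 metabolic genes, 7 rose and 1 fell in shoots, with a median log2 change of 2.03, and in roots 3 rose and 5 were not called, with a median of 0.84. Of all genes tested, 10.8% were called up-regulated in shoots and 8.22% in roots. The median over all genes tested was 0 in both organs. Of the 7 defence genes, 6 fell and 1 rose in shoots, with a median of -2.40, where 8.87% of all genes tested were called down-regulated in shoots, and in roots 1 fell and 6 were not called, where 7.85% of all genes tested fell.

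**Figure D4:**
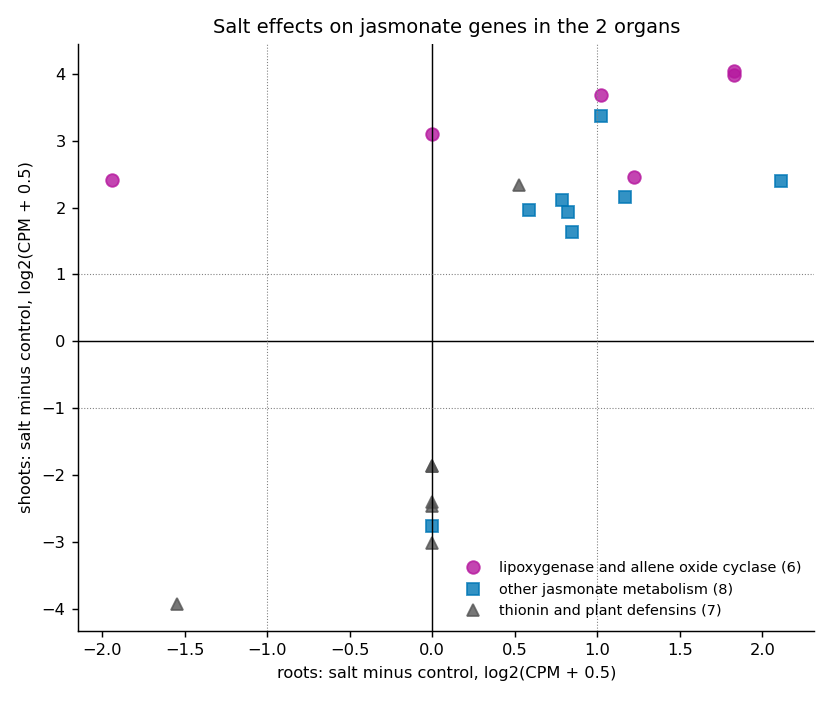
Change with salt in shoots (vertical axis) against that in roots (horizontal axis), both as differences of mean log2(CPM + 0.5), for 21 genes; dotted lines mark changes of 1 and -1. Most metabolic genes lie in the upper right, Csa06g005340 alone in the upper left, and 5 defence genes listed at 0 in all roots lie on the vertical axis below 0.

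Acyl-CoA oxidase 1 (ACX1) catalyses the first step of the β-oxidation that shortens the jasmonate precursor in the peroxisome, and it also acts on ordinary fatty acids. Its 3 genes are well above the rounding step. Csa12g050960 was at 36, 34 and 31 CPM in control shoots and 201, 86 and 183 CPM in salt-treated shoots (log2 change 2.11, SE 0.25, adjusted p = 3.39e-05). Csa10g028750 and Csa11g032960 rose in shoots by 1.96 and 1.93 (adjusted p = 0.000113 and 6.26e-06). In roots the 3 genes stood at ratios of 1.74, 1.51 and 1.78, with log2 changes of 0.79, 0.59 and 0.82, below the threshold of 1. The interaction was called for each of them (differences of 1.33, 1.37 and 1.10), where 6.25% of all genes tested were called in that direction. The shoot change enters this difference, and its direction was fixed by the choice of genes, so a higher change in shoots was favoured. The 3 genes may share reads and are not separate evidence. Without variance moderation the interaction calls for Csa12g050960 and Csa10g028750 were lost (adjusted p = 0.0525 and 0.0646). That of Csa10g028750 was lost in 8 of 12 fits without a library (adjusted p up to 0.0601), namely those without control root replicates 2 or 3, control shoot replicates 1 or 2, salt root replicates 1 or 2, or salt shoot replicates 1 or 3. The difference of Csa11g032960 fell below the threshold of 1 without salt shoot replicate 1 (0.94) and with quantile normalization (0.954).

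The OPR2 gene Csa17g023790 encodes a relative of OPR3, the reductase that serves jasmonate synthesis in Arabidopsis. It was at 10, 7 and 8 CPM in control shoots and 51, 27 and 41 CPM with salt (log2 change 2.15, SE 0.28, adjusted p = 7.196e-05). In roots it was at 1, 2 and 2 CPM in controls and 5, 3 and 5 CPM with salt (log2 change 1.17, adjusted p = 0.00524, but 0.92 without control root replicate 1). OPCL1 (Csa03g024330) encodes the ligase that joins the reduced precursor to coenzyme A. It rose in shoots from 3, 4 and 5 CPM to 16, 12 and 12 CPM (log2 change 1.63, adjusted p = 1.80e-05) and stood at a change of 0.85 in roots, under the threshold.

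Genes that act on finished jasmonate were also listed. CYP94B3, which inactivates the active isoleucine conjugate by hydroxylation in Arabidopsis, has 2 genes here. Csa06g022330 is listed at 0 in each control shoot and at 5, 4 and 5 CPM in salt-treated shoots (adjusted p = 2.71e-05). Csa04g033670 was at 0, 0 and 1 CPM in control shoots and 4, 3 and 3 CPM with salt (adjusted p = 0.00422), and it was at 0, 0 and 1 CPM in control roots and 4, 1 and 4 CPM in salt-treated roots, where the groups overlap although the test was passed (adjusted p = 0.0101). That root call was lost with each organ fitted alone (adjusted p = 0.0537) and without both salt root replicate 1 and salt shoot replicate 2 (0.0672). The root call for Csa06g022330 (1, 0 and 1 CPM against 2, 1 and 2 CPM, adjusted p = 0.0456) was lost in 9 of 12 fits without a library, all except those without control root replicates 1 or 3 or salt root replicate 2 (adjusted p up to 0.136). A jasmonate methyltransferase-like gene, Csa16g012600, is the one metabolic gene that fell in shoots. It was at 10, 10 and 9 CPM in control shoots and at 1 CPM in each salt-treated shoot (log2 change -2.76, SE 0.14, adjusted p = 1.70e-07) and is listed at 0 in all roots. Roots at 0 and equal salt-treated shoots add no spread to the shared estimate, so this SE and p may be too small. In the alternative fits the adjusted p in shoots reached 4.52e-05.

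All 7 defence genes were called higher in control shoots than in control roots, as were 17% of all genes tested, and the choice of genes that fell in shoots favours genes expressed there without salt. Plant defensins are small secreted antifungal proteins, and PDF1.2 is a standard marker of joint jasmonate and ethylene signalling in Arabidopsis. The defensin gene with the highest CPM, Csa07g047370 (PDF1.3), went from 954, 853 and 889 CPM in control shoots to 337, 199 and 222 CPM in salt-treated shoots (log2 change -1.87, SE 0.15, adjusted p = 3.25e-06). The steepest fall among the defensins was that of Csa16g039920 (PDF1.2), from 96, 66 and 65 CPM to 12, 5 and 11 CPM (log2 change -3.02, SE 0.27, adjusted p = 5.80e-06). Csa13g034620, Csa09g080530 and Csa13g034630 fell as well (log2 changes of -1.86, -2.47 and -2.40). These 5 genes are listed at 0 in every root library. Their roots thus add no spread to the shared estimate, and their SE and p in shoots may be too small.

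Another defensin gene went against the others. Csa07g047380, annotated as PDF1.2C, was at 12, 14 and 13 CPM in control shoots and at 102, 28 and 109 CPM with salt (log2 change 2.34, SE 0.50, adjusted p = 0.00233). Defensins are close relatives of each other, and reads may have been divided between them. Thionin 2.1 (THI2.1, Csa09g075730), another antimicrobial peptide gene, fell in shoots from 8, 18 and 25 CPM to 1, 1 and 0 CPM (log2 change -3.93, SE 0.56, adjusted p = 0.000146). Its fall in roots, from 2, 2 and 1 CPM to 0, 0 and 1 CPM, has overlapping groups and passed narrowly (adjusted p = 0.0414), and it was lost without control root replicates 1 or 2, control shoot replicate 2, or salt root replicates 1 or 2 (adjusted p up to 0.145). It was also lost with the replicate number as a block (adjusted p = 0.0608), with each organ fitted alone (0.0639), without variance moderation (0.0886) and with 1 added before the logarithm (0.056).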

How the data were processed

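RNA was extracted from roots and shoots and stranded libraries were sequenced (Illumina). The authors' steps were Trimmomatic for trimming, STAR for mapping to the C. sativa genome and NCBI release 100 transcripts, division of counts by library size to CPM, and DESeq normalization, with no versions stated. The deposited values are a score, CPM rounded to whole numbers. For genes of 2 to 32 CPM the replicate variance was 0.176 to 0.755 of the mean, below that of raw counts, so count models were not used, and the depth per library is unknown.

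The filter asked for 1 CPM or more in 3 or more libraries (49928 of 49932). Values were put on the log2(CPM + 0.5) scale and fitted with limma 3.58.1 in R 4.3.3, with 4 groups sharing the spread, a trend in the prior variance (8 residual degrees of freedom, median 3.23 prior degrees of freedom) and Benjamini-Hochberg adjustment over all genes tested. An exact permutation test of 3 libraries against 3 gives no p below 0.1. Thresholds follow the study's methods. Rounding bounds move each group mean by 0.5 CPM in opposite directions. The members and lists were chosen with earlier results of these data known. The text names the 6 members, the other jasmonate genes of the study's sheets, and the nearest profiles by Pearson's r (of the 5 nearest to each of 4 profiles, those with a name and at most 2 without). The RefSeq table used here pairs no names with these gene IDs, so the list could not be widened and no sequences are shown. The planned ratio of the AOC2 copies was not tested, because 1 copy is listed at 0 in 9 of 12 libraries. Alternatives were other pseudocounts, filters, scalings and variance models, each organ alone, a replicate block, and each library left out.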

Additional observations from a re-analysis of the deposited data

Results flagged for a closer look

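The salt effect differed between shoots and roots by the interaction test (limma, Benjamini-Hochberg over 49928 genes) for these jasmonate genes, given as the shoot change minus the root change on the log2 scale. For the 6 members the differences were 2.22 (Csa09g076110), 2.66 (Csa16g035210), 2.15 (Csa07g039620), 1.23 (Csa03g021200), 3.10 (Csa09g008870) and 4.36 (Csa06g005340). Among other metabolic genes they were 1.33 (Csa12g050960), 1.37 (Csa10g028750), 1.10 (Csa11g032960), 2.34 (Csa06g022330) and -2.76 (Csa16g012600). Among defence genes they were -2.39 (Csa09g075730), -1.87 (Csa07g047370), -1.86 (Csa13g034620), -2.47 (Csa09g080530), -2.40 (Csa13g034630) and -3.02 (Csa16g039920). Csa09g008870, Csa16g012600 and the 5 defensin genes named here are listed at 0 in all roots, so their values restate the change in shoots. The other metabolic genes and the defence genes were taken from the study's sheets of genes changed in shoots. Differences in the direction of that change were thus favoured by the choice. The THI2.1 gene Csa09g075730 lay at the threshold (adjusted p = 0.0496) and was lost in 10 of 12 fits without a library, all except those without control shoot replicate 1 or salt shoot replicate 2 (adjusted p up to 0.12), and with the replicate number as a block (0.0729). Its call was also lost with 0.1 added before the logarithm (adjusted p = 0.374) and without variance moderation (0.107). The same held with quantile normalization (0.0521) and without a trend in the prior variance (0.0571). Groups of 3 libraries are too small for a test of single outlying libraries.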

How the results depend on the processing

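For the 6 members, every fit that could test a gene kept the direction and the call in shoots, with and without salt shoot replicate 2 and with both salt root replicate 1 and salt shoot replicate 2 left out (the latter chosen after seeing the data). Csa09g008870 failed the filter, and gave no value, where a salt shoot replicate was left out or 5 CPM was required. In roots, 4 members were called in every fit but that with the replicate number as a block, where Csa16g035210 passed too (log2 change 1.02, adjusted p = 0.0235) and 5 were called. Same-numbered libraries did not deviate together throughout (r of -0.159 to 0.346 over 5444 genes, 6 of 12 correlating best with their own number). With so few numbers these values cannot decide whether same-numbered libraries shared plants, trays or days, and no label states it. The block changed no other call of a member, while THI2.1 (Csa09g075730) lost its root and interaction calls under the block (adjusted p = 0.0608 and 0.0729). Of the 6 interaction calls, 2 were left with a pseudocount of 0.1 (Csa09g008870 and Csa06g005340), 4 without variance moderation, 3 to 5 with a library left out, and 5 with both named libraries left out. The call for Csa09g008870 only restates its rise in shoots from 0, which a smaller pseudocount enlarges. Its being left is therefore no sign of stability. The root calls of the lipoxygenase genes rest on values of 0 to 3 CPM, near the rounding step, and the depth behind them is unknown. The planned test of the AOC2 ratio and its alternatives were not run. No fit reversed a called change of any listed gene. Scaling by median of ratios or quantiles changed no call of a member.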
